A study of Mus musculus with 6 samples.

Results

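RNA of mouse lung endothelial cells sorted by flow cytometry was read here for transcripts of white blood cells. The 40 genes described are markers of macrophages and monocytes (18 genes), neutrophils (5), T cells (8), natural killer (NK) and cytotoxic cells (3) and B cells (5), with Ptprc, which encodes the pan-leukocyte surface protein CD45. They were taken by name from lists of marker genes, and all 40 were found among the 24520 genes of the deposited tables. The study compared 3 libraries from mice labelled wild type (WT) with 3 from mice labelled knockout (KO) for Dnmt3a, a DNA methyltransferase that sets new methylation. Tissue and cell type were lung and endothelial cell in both groups. The sources used here state neither the allele, nor any Cre driver, nor the sort gate, nor the age of the mice. They do not say whether the 3 libraries of a group came from separate animals, so p-values measure only how far these libraries differ, which may be technical. Values for 6 libraries are listed in the order of replicates 1, 2 and 3, first under the WT label and then under the KO label.

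Leukocytes are the cells that a sort for lung endothelium is meant to leave behind, because capillaries of the lung hold large numbers of blood cells and alveolar macrophages lie close to the vessel wall. Macrophages take up particles and dying cells and express complement C1q and the receptor for colony-stimulating factor 1, while neutrophils are the short-lived granulocytes that store S100A8 and S100A9. T cells carry an antigen receptor that signals through the CD3 chains and the kinase Lck, NK cells kill through granzymes, and B cells signal through an immunoglobulin receptor paired with CD79A and CD79B. Several of the marker genes are also active outside blood. Lyz2, encoding lysozyme, is made by alveolar epithelial type 2 cells, and Mrc1, the mannose receptor, is found on some endothelium. In bulk RNA, a change in the number of cells of a type and a change in the RNA of each cell cannot be told apart.

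The targeted gene ran against its label. Dnmt3a had 1079 to 1235 estimated counts under the WT label and 4750 to 5090 under the KO label, or 2.22 on the log2 scale (SE 0.11, adjusted p = 0.00157 by edgeR). Groups are therefore called by their labels, and all directions are those of the libraries labelled KO over those labelled WT. The libraries held 28136194 to 39999172 estimated counts. Endothelial identity was strong in all 6: Pecam1, an endothelial adhesion molecule, stood at 999 to 1215 TPM (a level adjusted for gene length and depth), and Cdh5, the endothelial cadherin, at 847 to 993 TPM. CPM below is a gene's count relative to the depth of its library, scaled by edgeR's TMM factors and not adjusted for gene length, and 3 counts, taken as the floor of a library, were worth 0.0796 to 0.102 CPM.

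Some members have close relatives elsewhere in the genome, and the counts of such genes depend on how reads were divided between the copies. Which transcript set the authors used was not stated, so the GENCODE M21 transcripts were searched for 31-base windows that occur in more than 1 gene, on both strands. For 30 of the 40 members fewer than 5% of the windows were shared. More than 25% were shared by Ear2 (60.5%, 40.2% with Ear1), Chil3 (41.5%, most with Chil4) and Lyz2 (32.8%, all with Lyz1), and Ly6c2 shared 23.8%, most of it with Ly6c1. The first 150 coding bases of the lysozyme and Ly6c pairs are shown because reads of these members could be divided between the copies; they come from GENCODE M21 on mm10, 5′ to 3′ on the sense strand, with the bases that differ within a pair in capitals.
Lyz2: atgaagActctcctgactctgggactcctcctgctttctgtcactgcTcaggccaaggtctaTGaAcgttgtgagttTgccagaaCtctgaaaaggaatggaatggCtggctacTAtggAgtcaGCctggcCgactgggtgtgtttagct
Lyz1: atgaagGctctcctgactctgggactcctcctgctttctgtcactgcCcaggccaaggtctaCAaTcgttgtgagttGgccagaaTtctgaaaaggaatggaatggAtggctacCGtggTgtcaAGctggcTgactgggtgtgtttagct
Ly6c2: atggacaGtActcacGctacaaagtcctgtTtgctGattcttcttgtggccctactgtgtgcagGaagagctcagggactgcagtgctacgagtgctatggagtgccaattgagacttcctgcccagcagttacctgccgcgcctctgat
Ly6c1: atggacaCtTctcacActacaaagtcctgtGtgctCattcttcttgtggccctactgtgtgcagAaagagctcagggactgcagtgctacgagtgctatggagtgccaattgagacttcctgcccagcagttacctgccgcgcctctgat
Over the whole coding sequence, Lyz2 and Lyz1 (447 bases each) differed at 22 bases, an identity of 95.1%. Ly6c2 and Ly6c1 (396 bases each) differed at 9, an identity of 97.7%. The lysozyme pair thus offers more distinguishing bases within the shown stretch, 14 against 6.

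The leukocyte markers were sparse. Of the 40 members, 28 had a mean level under 1 TPM over the 6 libraries and only Lyz2 and Plac8 exceeded 10 TPM. Ptprc (chromosome 1, 138062861 to 138175708, minus strand, mm10) had 38, 60 and 46 counts under the WT label and 21, 28 and 80 under the KO label. That is 0.223 to 0.901 TPM, and the TPM of Pecam1 in the same library was 1218 to 4727 times as high. The highest and the lowest Ptprc level both lay in libraries labelled KO, so the groups overlapped, and the fitted change was small against its error (log2 fold change -0.02, SE 0.60, edgeR adjusted p = 0.992). Without KO replicate 3 it was -0.84.

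Of the members, 4 had no count in any of the 6 libraries, which allows at most about 3 counts in each: Marco, a scavenger receptor of alveolar macrophages, Csf1r, the receptor for colony-stimulating factor 1, C1qc, a chain of complement C1q, and Ms4a7, a macrophage membrane protein. Mpeg1, the macrophage gene for perforin-2, was listed with 1 count in 5 libraries, but its TPM there was at most 2.37e-08. The deposited counts are at least 1 wherever the TPM is above 0. At the other end 15 members exceeded 3 counts in every library. The remaining genes had 3 counts or fewer in at least 1 library, as the map of all members shows.

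**Figure D1:**
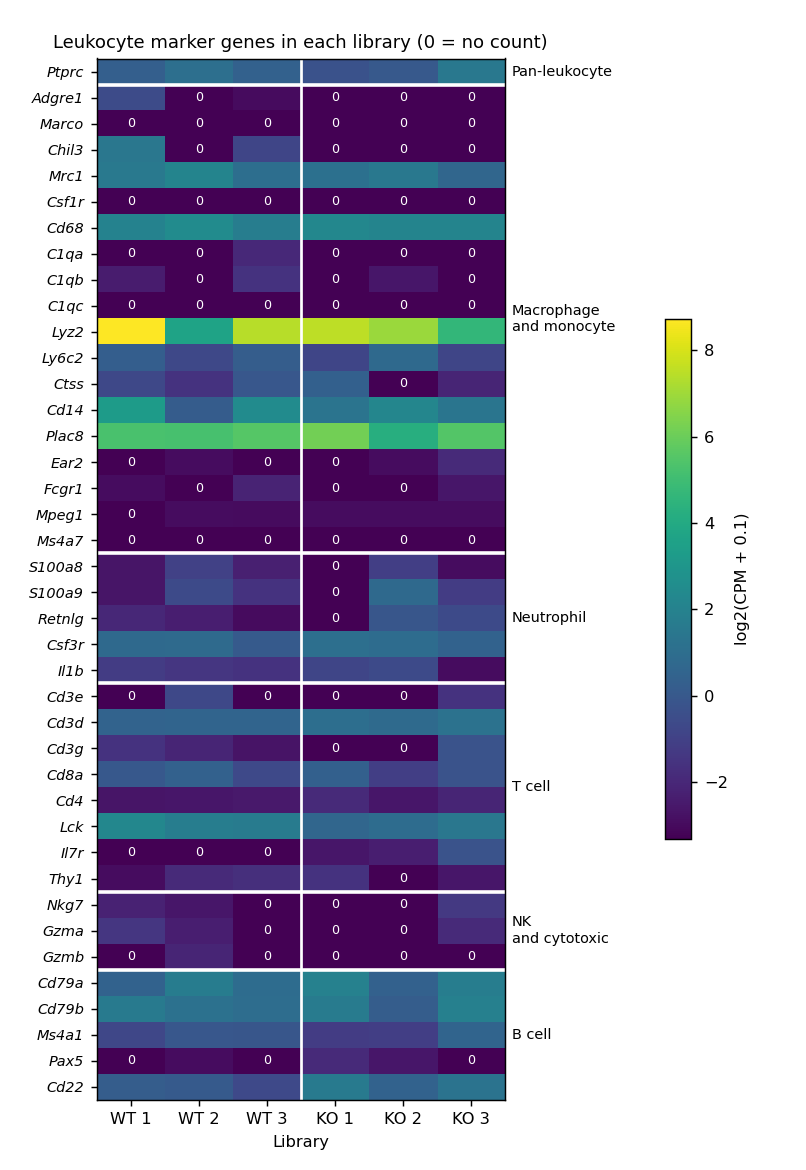
Level of the 40 marker genes (rows, by lineage) in the 6 libraries (columns), as log2(CPM + 0.1), with 0 written where a library had no count. Lyz2 and Plac8 stand out in every library, Marco, Csf1r, C1qc and Ms4a7 are empty throughout, and the other genes lie below both in their mean level.

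Across all genes, edgeR's quasi-likelihood test called 5 of 14667 genes between the labels (0.0341%). Low counts kept 22 members out of that test, and of the 18 that were tested none was called (edgeR adjusted p = 0.342 to 0.992). DESeq2 called 2.79% of the genes it gave an adjusted p and 0 of 19 members with one. At an unadjusted p under 0.05, edgeR had 2 members, Lck and Cd22, which is 11.1% of the tested members against 12.6% of all tested genes. Lck was lower under the KO label, as were 5.77% of all tested genes at that level, and Cd22 higher, as were 6.88%. Fitted log2 fold changes were positive for 9 and negative for 9 members (49.1% of all tested genes were negative), with a median of -0.0045 beside 0.0086 over all tested genes. Standard errors ran from 0.29 to 1.36 with a median of 0.57, against a median of 0.22 over all tested genes.

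**Figure D2:**
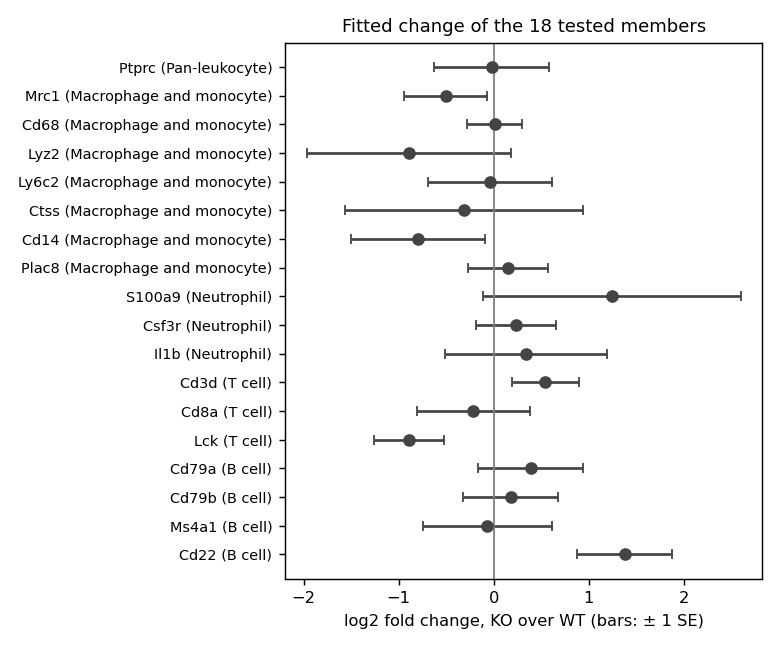
Fitted log2 fold change of the 18 tested members, libraries labelled KO over libraries labelled WT, with bars of 1 standard error on either side. Most bars cross 0; Lck lies to the left and Cd22 to the right, and neither passed the adjusted threshold.

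Among macrophage and monocyte genes, Lyz2 and Plac8 accounted for most of the counts. Lyz2 (chromosome 10, 117277331 to 117282321, minus strand) had 13889, 370 and 6551 counts under the WT label and 5369, 3683 and 751 under the KO label. WT replicate 1 was highest and WT replicate 2 lowest, a 33.7-fold range in CPM inside a single label. Plac8 (chromosome 5, 100553725 to 100572245, minus strand), which encodes a small cysteine-rich protein, was steadier, at 38.0, 37.1 and 47.0 CPM under the WT label and 72.3, 18.4 and 45.0 CPM under the KO label. Together these genes took 61.4% to 92.4% of all member counts in a library. Neither differed between the labels beyond the spread: the log2 fold change was -0.89 (SE 1.08, edgeR adjusted p = 0.754) for Lyz2 and 0.15 (SE 0.42, edgeR adjusted p = 0.901) for Plac8. The direction of each rested on 1 library: the log2 fold change was 0.23 for Lyz2 without WT replicate 1 (and -0.17 by limma on TPM with all libraries) and -0.36 for Plac8 without KO replicate 1.

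The level of Lyz2 moved with that of alveolar epithelial type 2 markers. Sftpc, which encodes the surfactant protein that defines these epithelial cells, stood at 7762, 173 and 3310 CPM under the WT label and at 2927, 1837 and 548 CPM under the KO label, a 45.0-fold range. Lyz2, at 423, 12.5 and 174 CPM and then 182, 122 and 25.4 CPM, amounted to 4.64% to 7.26% of the Sftpc CPM in each library. The ratio therefore varied 1.56-fold where Lyz2 itself varied 33.7-fold. The near copy Lyz1 amounted to 1.51% to 2.41% of Sftpc, a 1.59-fold range, which is close to that of the surfactant gene Sftpb (4.57% to 6.96%, a 1.52-fold range). Lyz1 is not independent of Lyz2 here, because 32.8% of the Lyz2 windows occur in Lyz1 and reads could be divided between them. All 7 epithelial type 2 markers were present in every library, and their summed level was 201 to 9125 CPM under the WT label and 642 to 3462 CPM under the KO label. Their part in the Lyz2 level was not tested. Plac8 had no such fixed ratio to Sftpc, at 0.489% to 21.5% of it.

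**Figure D3:**
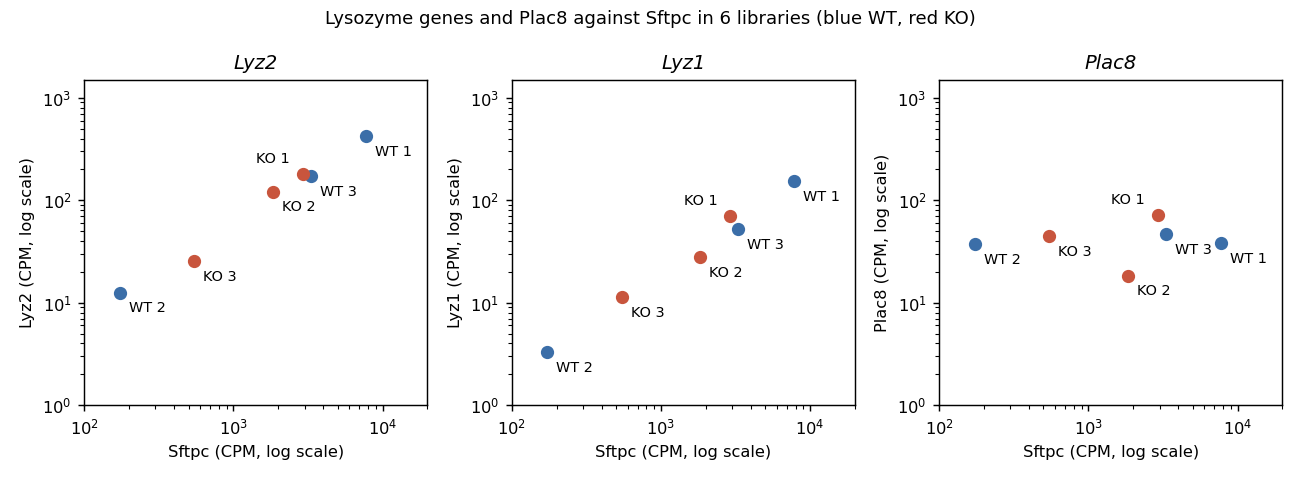
Level of Lyz2, Lyz1 and Plac8 (vertical axes, CPM, log scale) against Sftpc (horizontal axis, CPM, log scale) in the 6 libraries, blue for those labelled WT and red for those labelled KO. The lysozyme genes are lowest with Sftpc in WT replicate 2 and highest with it in WT replicate 1, with KO replicate 1 and WT replicate 3 changing places between, while Plac8 stays between 18.4 and 72.3 CPM.

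Several genes more closely tied to macrophages than lysozyme were seen in some libraries and not in others. Adgre1, the gene of the macrophage antigen F4/80, had 19, 0 and 1 counts under the WT label and 0 in all 3 labelled KO. Chil3, a chitinase-like protein abundant in alveolar macrophages, had 86, 0 and 18 counts under the WT label and none under the KO label. Both genes were thus most abundant in WT replicate 1, and both overlapped between the labels, because WT replicate 2 was at 0 as well. C1qa was seen only in WT replicate 3 (6 counts), and C1qb had 3, 0 and 9 counts under the WT label and 0, 2 and 0 under the KO label. Fcgr1, the high-affinity receptor for immunoglobulin G, had at most 5 counts and Ear2, an eosinophil-associated ribonuclease, at most 5. Summed over the 10 members Adgre1, Marco, Chil3, Csf1r, C1qa, C1qb, C1qc, Fcgr1, Mpeg1 and Ms4a7, a group put together after their values were seen, the level was 3.32, 0.0339 and 1.06 CPM under the WT label and 0.0338 to 0.102 CPM under the KO label. In WT replicate 2 and KO replicate 1 this sum was only the 1 count of Mpeg1, whose TPM was at most 2.37e-08. In each library labelled KO the sum was at or under the floor of 3 counts. Adgre1 and Chil3 made up most of it in WT replicate 1, and none of these 10 entered the test. Over the whole lineage of 18 genes the sum was 482, 61.3 and 235 CPM under the WT label and 265, 153 and 79.4 CPM under the KO label, mostly Lyz2 and Plac8. Without Lyz2 and Plac8 it was 21.3, 11.7 and 13.9 CPM and then 10.8, 13.3 and 8.97 CPM, and the groups overlapped. The members outside the 10 did not share one order: Plac8 and Ctss were highest in KO replicate 1, Ly6c2 in KO replicate 2 and Ear2 in KO replicate 3.

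The other myeloid members were low but present. Cd68, a lysosomal glycoprotein of macrophages, was even, with 130, 165 and 128 counts under the WT label and 137, 128 and 123 under the KO label (log2 fold change 0.01, SE 0.29, edgeR adjusted p = 0.991). Mrc1 had 92, 126 and 73 counts and then 62, 84 and 43 (log2 fold change -0.51, SE 0.43, edgeR adjusted p = 0.643), with overlap between the groups. Neither gene followed the pattern of Adgre1 and Chil3 across the libraries. Cd14, the co-receptor for bacterial lipopolysaccharide, ran from 1.05 CPM in WT replicate 2 to 9.59 CPM in WT replicate 1, and its groups overlapped (log2 fold change -0.80, SE 0.71, edgeR adjusted p = 0.656). Ctss, the protease cathepsin S, had 0 to 35 counts. Ly6c2, a surface protein of inflammatory monocytes, had 14 to 50 counts, whereas its near copy Ly6c1, which endothelium expresses, stood 234 to 809 times as high in CPM. Over the 7 tested macrophage and monocyte members the median log2 fold change was -0.31, with 5 negative and 2 positive.

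Further macrophage and monocyte genes held both sparse and steady ones. Of 8 further alveolar macrophage genes, 2 were tested and none was called; Ear1 and Itgax had no count in any library. Plet1, the most abundant of them, was at 9.19, 1.15 and 5.65 CPM under the WT label and at 2.13, 1.16 and 0.271 CPM under the KO label (log2 fold change -2.17, SE 0.89, edgeR adjusted p = 0.382). Its groups overlapped, and it was highest in WT replicate 1, the library richest in Adgre1, Chil3 and Sftpc. Krt79 had 1, 5 and 1 counts under the WT label and 8, 14 and 9 under the KO label, without overlap and too low to be tested, and Atp6v0d2 had 5 to 17 counts with overlap. Of 10 further monocyte and interstitial macrophage genes, 4 were tested and none was called, and Clec4a3, Cd163 and Aif1 had no count. Ms4a6c, a membrane protein of monocytes and the most abundant of these genes, held 133 to 181 counts in every library (log2 fold change 0.07, SE 0.27, edgeR adjusted p = 0.934). Cx3cr1, the fractalkine receptor, lay between 0.925 and 1.22 CPM in all libraries. Folr2, a folate receptor of tissue-resident macrophages, was lower in all 3 libraries labelled KO, at 10, 6 and 3 counts against 19, 17 and 18, without passing (log2 fold change -1.34, SE 0.59, edgeR adjusted p = 0.404).

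Neutrophil transcripts were few, and 3 of the 5 members, S100a9, Retnlg and Il1b, were highest in KO replicate 2. S100a9 (chromosome 3, 90692632 to 90695721, minus strand) had 2, 16 and 9 counts under the WT label and 0, 50 and 10 under the KO label. Its partner S100a8 had 2, 12 and 4 counts and then 0, 11 and 1, and Retnlg, a resistin-like protein of neutrophils, had 5, 3 and 1 and then 0, 25 and 16. S100a9, S100a8 and Retnlg were empty in KO replicate 1, so the libraries labelled KO held both the lowest value and, for S100a9 and Retnlg, the highest. S100a9 was the only one of them to enter the test (log2 fold change 1.24, SE 1.36, edgeR adjusted p = 0.726), and without KO replicate 2 its log2 fold change was -0.71. Csf3r, the receptor for granulocyte colony-stimulating factor, behaved otherwise: it held 36 to 59 counts in every library (log2 fold change 0.24, SE 0.42, edgeR adjusted p = 0.835), though 23.1% of its 31-base windows occur in other genes. Il1b, the cytokine interleukin 1 beta, had 11, 8 and 9 counts under the WT label and 14, 17 and 1 under the KO label.

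Further neutrophil genes varied in level and in pattern. Ly6g, the surface antigen by which mouse neutrophils are sorted, and Mpo, the myeloperoxidase of their granules, had no count in any library. Ngp, a granule protein, had 2, 34 and 44 counts under the WT label and 4, 28 and 1 under the KO label. Cxcr2, a chemokine receptor found on neutrophils and also on endothelium, was the most abundant and even, at 24.1 to 31.5 CPM (log2 fold change 0.11, SE 0.14, edgeR adjusted p = 0.774). Ltf, the granule protein lactoferrin, which epithelium also makes, had 465, 30 and 127 counts under the WT label and 92, 111 and 50 under the KO label, highest in WT replicate 1 (log2 fold change -1.13, SE 0.85, edgeR adjusted p = 0.599). None of the 3 tested genes among these 11 was called.

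Of the 4 members whose groups did not overlap, 3 were T cell genes, and they differed in direction. Lck (chromosome 4, 129548344 to 129573641, minus strand), the kinase that starts T cell receptor signalling, had 151, 99 and 116 counts under the WT label and 44, 55 and 78 under the KO label. The groups did not overlap, at 3.67 ± 0.81 CPM against 1.98 ± 0.59 CPM (mean ± SD, n = 3 each), and the gene did not pass (log2 fold change -0.89, SE 0.37, edgeR adjusted p = 0.383; DESeq2 adjusted p = 0.276). Cd3d, the delta chain of the CD3 complex (chromosome 9, 44981786 to 44987339, plus strand), had 44, 40 and 51 counts and then 58, 52 and 66. It was higher in all 3 libraries labelled KO, 1.35 ± 0.0084 CPM against 1.97 ± 0.26 CPM (mean ± SD, n = 3 each), again without passing (log2 fold change 0.55, SE 0.36, edgeR adjusted p = 0.538). Il7r, the interleukin 7 receptor, had no count under the WT label and 2, 3 and 22 under the KO label, and was too low to be tested; without KO replicate 3 it stood at or under the floor throughout. Together with Cd22 among the B cell genes, 3 of the 18 tested members had groups that did not overlap, which is 16.7% against 20.3% of all tested genes. By direction, 1 member was lower (9.42% of all tested genes) and 2 were higher (10.9%).

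**Figure D4:**
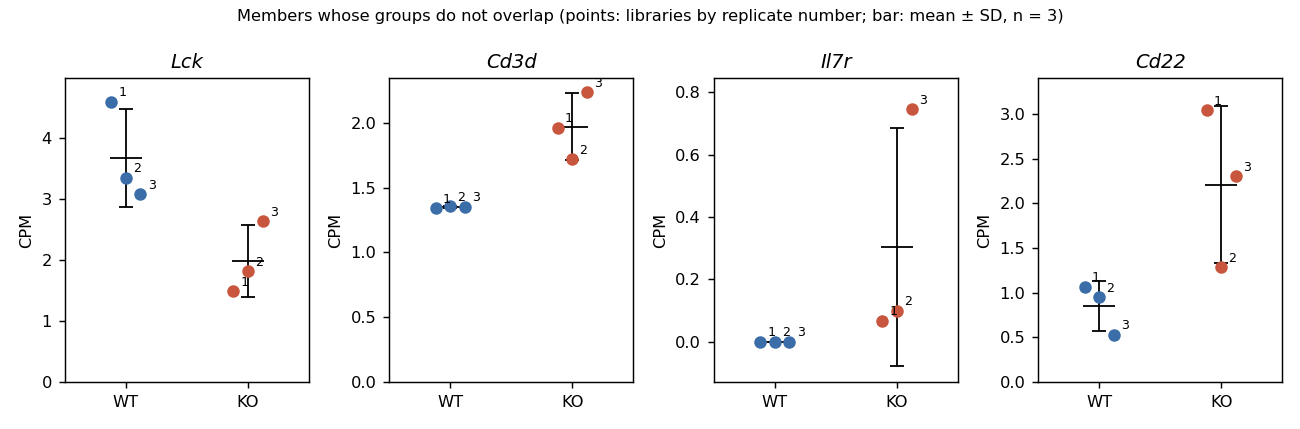
Level (CPM) of the 4 members whose groups did not overlap, with 1 point per library marked by its replicate number and the mean with its SD (n = 3). Lck is lower and Cd3d, Il7r and Cd22 are higher under the KO label; the Il7r mean there rests on KO replicate 3 (22 of the counts, against 2 and 3).

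Only WT replicate 2 and KO replicate 3 held counts of each of Cd3d, Cd3e and Cd3g, chains of the CD3 complex that reach the cell surface together. Cd3e had 0, 15 and 0 counts under the WT label and 0, 0 and 7 under the KO label. Cd3g had 8, 4 and 2 counts and then 0, 0 and 22. Cd3d was thus counted 40 times or more in all 6 libraries, including the 4 in which Cd3e was at 0. Less than 5% of the windows of each of the 3 genes were shared with other genes (Cd3d 3.10%, Cd3e 2.72%, Cd3g 0.243%). Cd8a, a co-receptor of cytotoxic T cells, had 30, 36 and 20 counts under the WT label and 35, 11 and 22 under the KO label, with overlap. Cd4, that of helper T cells, had 2 to 5, and Thy1 had 0 to 8. Over the 3 tested T cell members, Cd3d, Cd8a and Lck, the median log2 fold change was -0.21.

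Several lymphoid transcripts that only some libraries showed were highest in KO replicate 3. Its counts were the highest for Cd3g (22), Il7r (22) and, among cytotoxic genes, Nkg7, a granule membrane protein (4, 2 and 0 counts under the WT label and 0, 0 and 9 under the KO label). Gzma, granzyme A, had 9, 3 and 0 counts under the WT label and 0, 0 and 5 under the KO label, and Gzmb, granzyme B, was seen in WT replicate 2 alone (4 counts). WT replicate 3, KO replicate 1 and KO replicate 2 had no count of Nkg7, Gzma or Gzmb. None of these 3 cytotoxic genes entered the test. Among the 29 T, NK and cytotoxic genes above 3 counts in some library, listed and further ones together, 12 were highest in KO replicate 3, 9 in WT replicate 2 and none in WT replicate 3. Prf1, perforin, had 26, 38 and 14 counts under the WT label and 18, 25 and 65 under the KO label, and Ccl5, a chemokine of activated T and NK cells, had 2, 0 and 7 and then 3, 0 and 24.

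Of the further T cell genes 7 of 10 were tested and none was called. Cd247, the zeta chain of the T cell receptor complex, was the most abundant, at 7.73 to 15.5 CPM in the 6 libraries (log2 fold change 0.27, SE 0.28, edgeR adjusted p = 0.701), and like Cd3d it was present in all of them. Cd2, an adhesion receptor, and Cd5, a co-receptor, had 32 to 51 and 20 to 48 counts. The groups of Cd247, Cd2 and Cd5 overlapped. In the NK list, 1 of 10 genes was tested, Prf1 (log2 fold change 0.57, SE 0.69, edgeR adjusted p = 0.753). Klrk1, an activating receptor, had 4 to 18 counts, and Klrd1 and Tbx21 had no count.

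B cell genes were the most regularly detected of the lymphoid lineages, with 4 of 5 above 3 counts in every library, against 3 of 8 T cell and 0 of 3 NK members. Cd79b (chromosome 11, 106311341 to 106314762, minus strand) had 95, 64 and 72 counts under the WT label and 93, 33 and 108 under the KO label. Cd79a had 42, 97 and 68 and then 112, 37 and 98. Both chains of the receptor were lowest in KO replicate 2, and both overlapped between the labels, with log2 fold changes of 0.18 (SE 0.50) and 0.39 (SE 0.55; edgeR adjusted p = 0.901 and 0.792). Ms4a1, the CD20 antigen, had 16, 26 and 31 counts and then 10, 11 and 41 (log2 fold change -0.07, SE 0.68, edgeR adjusted p = 0.976). Leaving out KO replicate 3 gave -1.05, and leaving out KO replicate 1 gave 0.26. Pax5, the transcription factor of B cell identity, had at most 5 counts.

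Cd22 had the largest fitted change of the 18 tested members. This inhibitory co-receptor of B cells (chromosome 7, 30865402 to 30880342, minus strand) had 35, 28 and 20 counts under the WT label and 90, 39 and 68 under the KO label, or 0.848 ± 0.28 and 2.21 ± 0.88 CPM (mean ± SD, n = 3 each). All 3 libraries labelled KO lay above all 3 labelled WT, and the log2 fold change of 1.38 (SE 0.50) did not pass (edgeR adjusted p = 0.342; DESeq2 adjusted p = 0.216). Cd79a, Cd79b and Ms4a1 did not share this order: Cd79a, Cd79b and Ms4a1 were each lower in KO replicate 2 than in all 3 libraries labelled WT. Exons of the opposite-strand gene Gm29439 overlap 9.50% of the exonic bases of Cd22, and whether the library kept strand was not stated, so reads of the pair cannot be told apart there. Of 11 further B cell genes, 10 were tested and none was called. Bank1, a B cell scaffold protein, was at 1.86 to 3.37 CPM (log2 fold change 0.04, SE 0.36), and Fcer2a, the low-affinity receptor for immunoglobulin E, at 2.33 to 3.89 CPM (log2 fold change -0.38, SE 0.31; edgeR adjusted p = 0.974 and 0.619). Vpreb3 had 10, 0 and 22 counts and then 43, 0 and 8. Cd72, a B cell co-receptor named here after its values were seen, was the further B cell gene whose groups did not overlap, as for Cd22, at 0.517, 0.542 and 0.557 CPM and then 1.08, 0.693 and 1.15 CPM (log2 fold change 0.85, SE 0.45, edgeR adjusted p = 0.458).

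The T cell and NK sums were highest in KO replicate 3, as was Ptprc, and the neutrophil sum was highest in KO replicate 2. The B cell sum was highest in KO replicate 3 by CPM, but in KO replicate 1 by TPM (13.3 against 13.0). The summed B cell level was 5.72, 7.31 and 5.06 CPM under the WT label and 10.5, 4.03 and 10.7 CPM under the KO label. The T cell sum was 7.18, 6.81 and 5.30 CPM and then 5.11, 4.06 and 7.55 CPM, and the neutrophil sum was 2.25, 3.01 and 1.56 CPM and then 2.47, 5.18 and 2.23 CPM. KO replicate 2 was thus lowest for the T and B cell sums and highest for the neutrophil sum. KO replicate 1 was high for the B cell sum and empty of the neutrophil genes S100a8, S100a9 and Retnlg. The other neutrophil members went otherwise there: Csf3r was at its highest (59 counts) and Il1b had 14 counts. Every one of these sums overlapped between the labels. Without Lyz2 and Plac8 the remaining 38 members summed to 27.0 to 38.0 CPM in the 6 libraries, a 1.40-fold range. Markers of red cells and platelets were also lowest in KO replicate 2 (663 CPM) and highest in WT replicate 2 (3702 CPM).

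**Figure D5:**
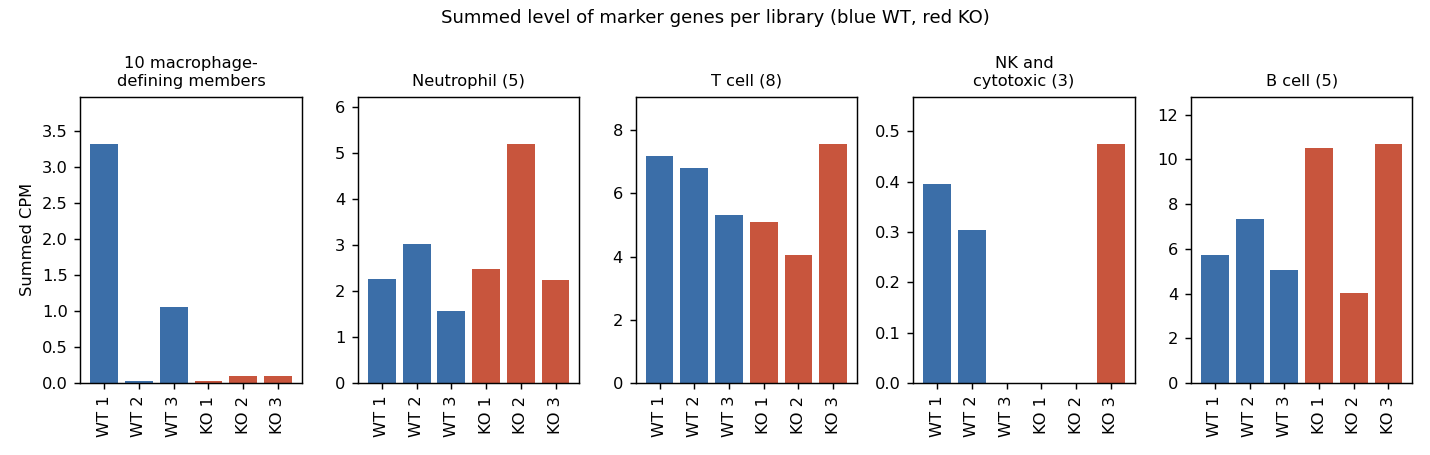
Summed CPM in the 6 libraries of the marker genes of 4 lineages and, in the first panel, of 10 macrophage members (bars from 0, blue WT, red KO). Each panel has its own scale. The 10, titled macrophage-defining, were chosen after their values were seen, out of 18 in that lineage. The rest of that lineage is not drawn. Its sum without Lyz2 and Plac8 was 8.97 to 21.3 CPM and overlapped between the labels. The sum of the 10 members is highest in WT replicate 1 and the neutrophil sum in KO replicate 2. The T and NK sums are highest in KO replicate 3 and the B cell sum in KO replicates 1 and 3. Single genes within a sum did not all share its order.

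Further genes listed as pan-leukocyte, not all of them active in every leukocyte type, were low too. Of 15 further pan-leukocyte genes 11 were tested and none was called, with 5 positive and 6 negative. Spi1, the transcription factor PU.1 of myeloid and B cells, had no count in any library. Cd37, a leukocyte tetraspanin, stood at 8.22, 10.1 and 10.6 CPM under the WT label and 8.39, 5.18 and 6.67 CPM under the KO label (log2 fold change -0.51, SE 0.25, edgeR adjusted p = 0.431). Rac2, a small GTPase of blood cells, was at 4.79 to 8.89 CPM with overlap. Coro1a, an actin-binding protein of blood cells, was lowest in KO replicate 2 (0.726 CPM) and highest in KO replicate 1 (6.26 CPM). Over all 91 further leukocyte genes 44 were tested and edgeR called none, beside 0.0341% of all tested genes. DESeq2 called 1, Cd83, of the 44 it gave an adjusted p, beside 2.79% of all genes with one.

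Cd83, a surface protein of mature dendritic cells and activated lymphocytes, was at 467, 276 and 628 counts under the WT label and 216, 160 and 80 under the KO label. The groups did not overlap (log2 fold change -1.39, SE 0.39), as for 20.3% of all tested genes. The edgeR adjusted p was 0.293 where DESeq2 gave 0.0245. Other dendritic cell genes overlapped between the labels or had no count. Clec9a, a receptor for dying cells on cross-presenting dendritic cells, was at 70.4 to 145 CPM with overlap (log2 fold change 0.18, SE 0.28, edgeR adjusted p = 0.814), Ccr7 was at 0.495 to 2.27 CPM, and Cd209a had no count. In the mast cell and basophil list, Hdc, the enzyme that makes histamine, was at 7.86 to 27.3 CPM, whereas the proteases Mcpt4 and Mcpt8 had at most 8 and 4 counts and Fcer1a and Tpsb2, a receptor chain and a protease of these cells, had no count.

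MHC class II genes, which B cells, dendritic cells and macrophages express and which lung epithelium and endothelium express as well, were also read. All 7 were fitted below 0 (median -3.77 on the log2 scale), and 6 of them had an unadjusted p under 0.05 by edgeR (12.6% of all tested genes), but none was called by edgeR or DESeq2. Cd74, the invariant chain, had 8129, 827 and 74617 counts under the WT label and 2587, 662 and 842 under the KO label (log2 fold change -4.03, SE 1.39, edgeR adjusted p = 0.334). H2-Ab1, a class II beta chain, had 1815, 893 and 15041 counts and then 740, 138 and 179, without overlap (log2 fold change -3.77, SE 1.13, edgeR adjusted p = 0.304), and H2-Aa, an alpha chain, had 1322, 182 and 9419 and then 392, 126 and 98. Ciita, their transcriptional activator, named after its values were seen, did not overlap between the labels either. That makes 2 of the 7 without overlap, both lower under the KO label. Of all tested genes 20.3% had no overlap, and 9.42% were lower without overlap. These genes were highest in WT replicate 3. WT replicate 3 was the highest library for 0 of the 5 B cell members and for 0 of the 11 T, NK and cytotoxic members. It was the highest for 3 of the 13 macrophage and monocyte members above 3 counts in some library, C1qa and C1qb among them.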

How the data were processed

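The authors deposited estimated counts per gene, whole numbers without normalization, and TPM values, whose columns sum to 875864 to 885609. Per the submitters' processing notes kallisto was used with mm10. The kallisto version and annotation: not given in the sources used here. Per the labels' protocols, cDNA came from a SMARTer ultra-low-input kit and was read as 100-base pairs. The deposited counts are 0 only where TPM is 0: 198 of 2638 values of 1 count had a TPM under 1e-06, so that 1 count can stand for a small part of a read. Symbols and coordinates came from GENCODE M21 (24299 of 24520 identifiers), read per column by sample title.

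Counts, already whole, were tested with edgeR 4.0.16 (quasi-likelihood, TMM, filterByExpr by group, Benjamini-Hochberg over 14667 genes at 0.05, no covariate) under R 4.3.3; the SE is the log2 fold change over the square root of F. Alternatives used DESeq2 1.42.0 and limma 3.58.1. The test was checked on simulated counts with 200 changed genes, all drawn from genes above a set mean count. There edgeR recovered 38% of 2-fold and 66% of 4-fold changes, with 7 false calls. DESeq2 recovered 54% and 80%, with 56 false calls. Changes of these sizes can therefore be missed. Intervals were not needed; the floor of 3 counts covers counting error only. Within each group every pair of libraries differed by more than sampling error (chi-square over its degrees of freedom, 47.3 to 105). Constant-region genes of the antigen receptors (Trac, Trbc1, Trbc2, Ighm, Ighd, Igkc) were sought by name but not found among the deposited genes. Their level in these libraries is therefore unknown.

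All 40 members could be named. Values in every library are given for those without overlap between the groups, the 3 of each lineage with the highest mean TPM and the defining genes, and for others where they show the range; of each further list up to 3 genes, those called first and then by mean TPM. Cd72, Ciita and genes without counts were named beyond that rule, after their values were seen. The members and lists were chosen with earlier results of these data known.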

Additional observations from a re-analysis of the deposited data

How the results depend on the processing

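No member was called in any of the 14 alternative fits (other normalizations and filters, DESeq2, limma on TPM, the replicate block, and each library left out); 0 to 4 members had an unadjusted p under 0.05. The count over all genes was 412 with DESeq2, 9 with limma on log2(TPM + 0.1), 0 with the replicate block and 1 to 4 without 1 library. The block changed no call among the members, and same-numbered libraries did not all deviate together (correlations 0.28, -0.048 and -0.18), so the numbers were not taken as pairs. Lck stayed negative (-1.15 to -0.60) and Cd22 positive (0.52 to 1.65) in every fit that tested them, with adjusted p of 0.276 to 0.682 and 0.216 to 0.695. Mrc1, Cd14, Csf3r, Cd3d and Cd79a also held their sign in every fit that tested them, and the sign of each other tested member turned in at least 1, among them Lyz2 (0.23 without WT replicate 1). Medians of the lineages were less settled. For macrophage and monocyte genes the median was -0.66 with DESeq2 and -0.67 without a filter, both over 14 genes, and -0.83 to -0.057 without 1 library. For T cell genes it was 0.16 with DESeq2 and 0.15 without a filter, both over 8 genes, and -0.68 to 0.12 without 1 library, and it was above 0 without WT replicate 2 or without KO replicate 2. For neutrophil genes it was -0.15 to 1.24 and for Ptprc -0.84 to 0.30 without 1 library. Sums over TPM or over CPM without TMM stayed within the spread between replicates, but by both the B cell sum was highest in KO replicate 1. A mean count of at least 50 left no neutrophil member and not Ptprc, so those values could not be given. Depth limits all of this: 22 members were too low to test.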
